A study of Arabidopsis thaliana with 18 samples.

Results

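The 71 genes described here are those of the Arabidopsis thaliana plastid genome that were measurable in seed RNA. They were chosen as the rows of the deposited count table on the plastid chromosome whose counts summed to at least 90 over all libraries. The table held 133 plastid rows among 32833 genes. The 71 members comprised 62 protein-coding genes, 5 tRNA genes and 4 ribosomal RNA rows, the last being both copies of rrn16 and of rrn23. Just inside the limit lay psaJ with 93 counts and trnL with 95. Just outside it lay petN with 89 and rps16 with 80.

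The seeds were freshly harvested and carried the Col-0 background throughout. By label they were knock outs of MKK3 (mkk3-1), knock outs of MPK7 (mpk7_ko3) or wild type (Col-0). Both genes encode kinases of a signalling cascade, in which MKK3 phosphorylates MAP kinases such as MPK7. Each genotype was sampled imbibed, after 6 h on wet filter paper, and dry. The 6 groups were therefore mkk3-1 imbibed, mkk3-1 dry, mpk7_ko3 imbibed, mpk7_ko3 dry, Col-0 imbibed and Col-0 dry, with 3 libraries each. Each mutant is represented by 1 line, and the labels do not say whether replicates were separate seed batches, so p-values may measure technical spread only.

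The plastid genome is a small circular chromosome inherited from the cyanobacterial ancestor of chloroplasts. It encodes subunits of the photosystems, the cytochrome b6f complex, the ATP synthase, the NADH dehydrogenase-like (NDH) complex and Rubisco, together with parts of its own transcription and translation apparatus. A bacterial-type polymerase, whose core is plastid-encoded and which needs nuclear-encoded sigma factors, transcribes it alongside a phage-type polymerase encoded in the nucleus. In seeds the plastids are not photosynthetically active and turn into chloroplasts after germination.

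2 stretches of plastid sequence are given as background, both from RefSeq in the TAIR10.1 build. The gene psbA encodes the D1 protein of the photosystem II reaction centre and had the highest level per kilobase when averaged over all libraries. Upstream of it, at Pt:1530-1559 on the minus strand, lies a match to the bacterial promoter form, with its first base 115 bases before the start codon. Capitals mark the letters searched, TTGACA and TANNNT, here 18 bases apart:
psbA upstream: TTGACAtggctatataagtcatgtTATACT
With a spacer of 15 to 19 bases and on the coding strand only, this pattern was found within 250 bases upstream of 3 of 88 protein-coding plastid rows (3.41%). The other 2 were the full and the short copy of ycf1, the full one with 17.8% of its sequence repeated in the plastid genome. Averaged over all libraries, the full copy had 0.881 CPM per kb, against 17.6 for psbA. The part of the match in these levels was not tested. The second stretch is where psbD and psbC, which encode the D2 and CP43 proteins of photosystem II, overlap by 53 bases at Pt:33720-33772 on the plus strand. Capitals mark the first 3 bases of the psbC row and the last 3 of the psbD row:
psbD-psbC overlap: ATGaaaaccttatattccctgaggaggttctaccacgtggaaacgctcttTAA
Reads from this stretch belong to both genes. The strand setting of the counting is not given in the sources used here, so reads from antisense RNA cannot be told apart either.

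Plastid RNA was a trace of every library. Protein-coding plastid genes held 1212 to 5257 counts per library, out of 18249333 to 21036275 in all. Whether the libraries were made from poly(A) RNA or after removal of rRNA is not given in the sources used here. Replicates differed more for plastid genes than for others. The median biological coefficient of variation was 0.296 over the 59 protein-coding members tested. It was 0.146 over 9397 other genes within the members' range of mean level, which were not matched in level inside that range. Col-0 dry replicate 2 stood apart, with 257 CPM (the usual rate of counts relative to the library total) in plastid protein-coding genes, against 130 and 142 in Col-0 dry replicates 1 and 3. Its mitochondrial counts were high as well, at 1555 CPM, against 733 and 809. Where a named gene lost its call without Col-0 dry replicate 2, that is stated with the gene. Col-0 imbibed replicate 3 also differed from replicates 1 and 2, with 720 CPM in mitochondrial genes, against 251 and 238. Its plastid rRNA rate was 4.40 CPM, against 1.81 and 1.17. Its plastid protein-coding rate was not apart, at 122 CPM, against 101 and 123. The 7 seed markers were abundant in all groups, for example cruciferin CRU1. Of the 7 green-tissue markers, LHCB1.1 and CA1 were at or near 0 in every group, with group means of at most 0.429 and 0.0919 CPM. RBCS1A, the small subunit of Rubisco, and RCA, its activase, were expressed, RBCS1A with group means of 60.3 to 108 CPM in imbibed and 20.9 to 28.7 CPM in dry seeds, and RCA with 10.8 to 17.0 and 7.13 to 7.66 CPM. RBCS3B, PSBO1 and PSAD1 had group means of 1.83 to 6.32 CPM in imbibed and 0.35 to 1.52 CPM in dry seeds. MKK3 had 7.12, 7.21 and 7.75 CPM in dry mkk3-1 seeds, against 18.6, 17.3 and 16.2 CPM in dry Col-0 seeds. In imbibed seeds it had 12.7, 12.3 and 10.3 CPM in mkk3-1, against 14.1, 13.4 and 12.5 CPM in Col-0. That log2 difference, -0.18 ± 0.10 (SE), did not pass the test (edgeR adjusted p = 0.307). MPK7 had 11.3 to 15.2 CPM in mpk7_ko3 and 32.3 to 44.2 CPM in Col-0, with log2 differences of -1.45 ± 0.09 imbibed and -1.49 ± 0.10 dry. Where the lesions lie is not given in the sources used here, so counts over the whole gene need not show them.

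Levels below are CPM scaled with TMM factors (trimmed mean of M-values). Summed over the protein-coding members, they were lower in imbibed than in dry seeds in each genotype, with no overlap between libraries. In mkk3-1 the sums were 69.1, 96.4 and 49.8 CPM imbibed, against 206, 182 and 190 CPM dry. In mpk7_ko3 they were 85.8, 52.3 and 68.7 CPM imbibed, against 123, 155 and 96.7 CPM dry. In Col-0 they were 82.5, 101 and 99.4 CPM imbibed, against 169, 312 and 170 CPM dry. The lowest dry library, mpk7_ko3 replicate 3, lay below the highest imbibed library, Col-0 replicate 2. Relative to library totals the decrease was smaller, and in mpk7_ko3 the groups overlapped, with 103, 61.8 and 82.7 CPM of the library total imbibed, against 93.7, 127 and 82.9 dry. All these levels are relative to the other RNA of a library. In whole seeds, fewer cells of a type, less plastid RNA per cell and more RNA of other genes cannot be told apart.

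**Figure D1:**
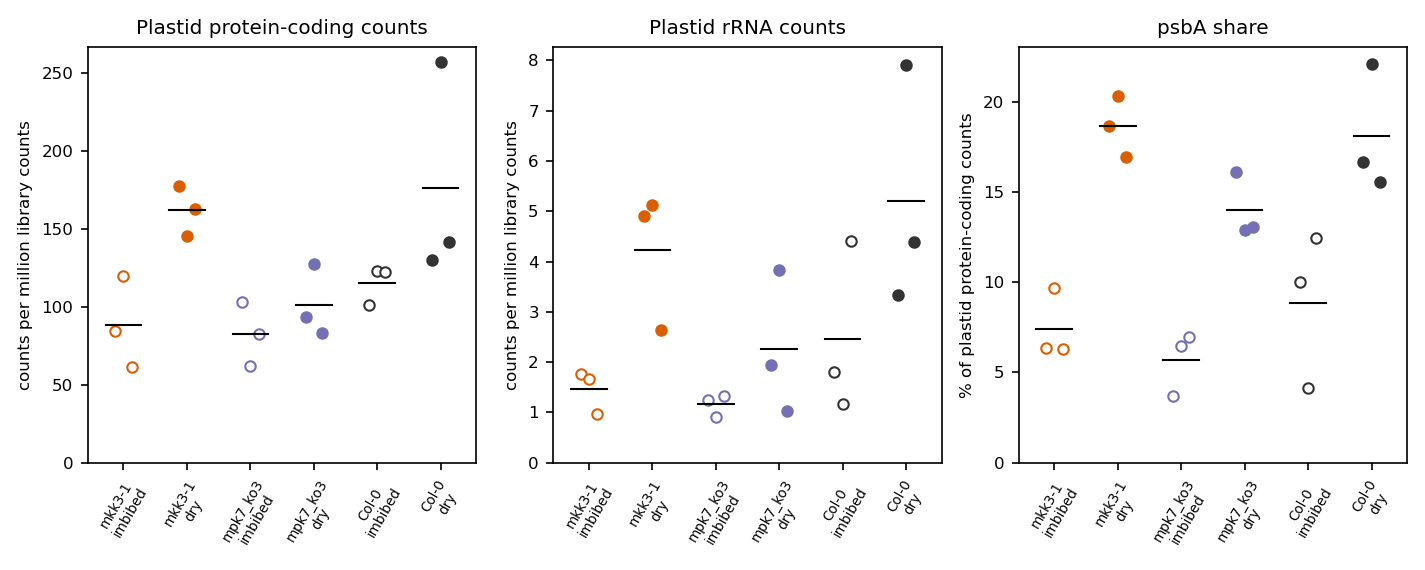
Plastid protein-coding counts in CPM of the library total (left), plastid rRNA on the same scale (middle) and the share of psbA in plastid protein-coding counts (right). Points are single libraries, open for imbibed and filled for dry, and bars are means of 3. Col-0 dry replicate 2 is the highest point in each panel, at 257, 7.92 and 22.1%.

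The first question was which plastid genes changed in 6 h of imbibition. Of the 59 protein-coding members tested, 41 fell in mkk3-1 (69.5%), 16 in mpk7_ko3 (27.1%) and 35 in Col-0 (59.3%), at an adjusted p below 0.05 (edgeR, over all 17758 genes tested). Among all genes tested, the share called lower was 35.8% in mkk3-1, 34.9% in mpk7_ko3 and 36.1% in Col-0. None of the protein-coding members rose in any genotype. The share of all genes called higher was 37.5% in mkk3-1, 37.6% in mpk7_ko3 and 38.8% in Col-0. The median log2 fold change of the members was -1.30 in mkk3-1, -0.55 in mpk7_ko3 and -0.96 in Col-0. Over all genes tested the medians were 0.048, 0.059 and 0.064 in the same order. The members psaJ, ccsA and psaI were too low to be tested.

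The libraries of 47 of the 62 protein-coding members did not overlap in mkk3-1, with every imbibed value below every dry one (75.8%, against 37.1% of all genes tested). In mpk7_ko3 this held for 21 (33.9%, against 34.2%), and in Col-0 for 37 (59.7%, against 37.6%). The share in mpk7_ko3 was thus at the background. With library totals in place of TMM factors, the median of all genes moved to 0.60, 0.61 and 0.66 in mkk3-1, mpk7_ko3 and Col-0. The members' medians were then -0.75, 0.0093 and -0.37, and 23, 6 and 9 of them fell, with 1 rise in mkk3-1. Without Col-0 dry replicate 2, 13 of the same 59 members fell in Col-0 and the median was -0.62. Without mpk7_ko3 dry replicate 2, 9 of the same 59 fell in mpk7_ko3.

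12 protein-coding members fell in all 3 genotypes. The share of all genes tested that fell in all 3 is not given here, so this count is a description only. They were psbA, psbC and psbD of photosystem II, psaA and psaB of photosystem I, petA of the cytochrome b6f complex, ndhD of the NDH complex, rpl20, rpoB, matK, clpP1 and cemA. A further 23 fell in 2 genotypes, 10 in 1 and 14 in none. This list depended on single libraries. Without Col-0 dry replicate 2 it was 7 genes, with rpl20, cemA, clpP1, petA and matK lost. Without mpk7_ko3 dry replicate 2 it was also 7, with petA, psaA, psaB, matK and rpoB lost. Over the other 16 omissions 8 or more of the 12 were called in all 3 genotypes. The counts differ between genotypes, but the difference in response was itself tested and no member passed, as given further on.

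**Figure D2:**
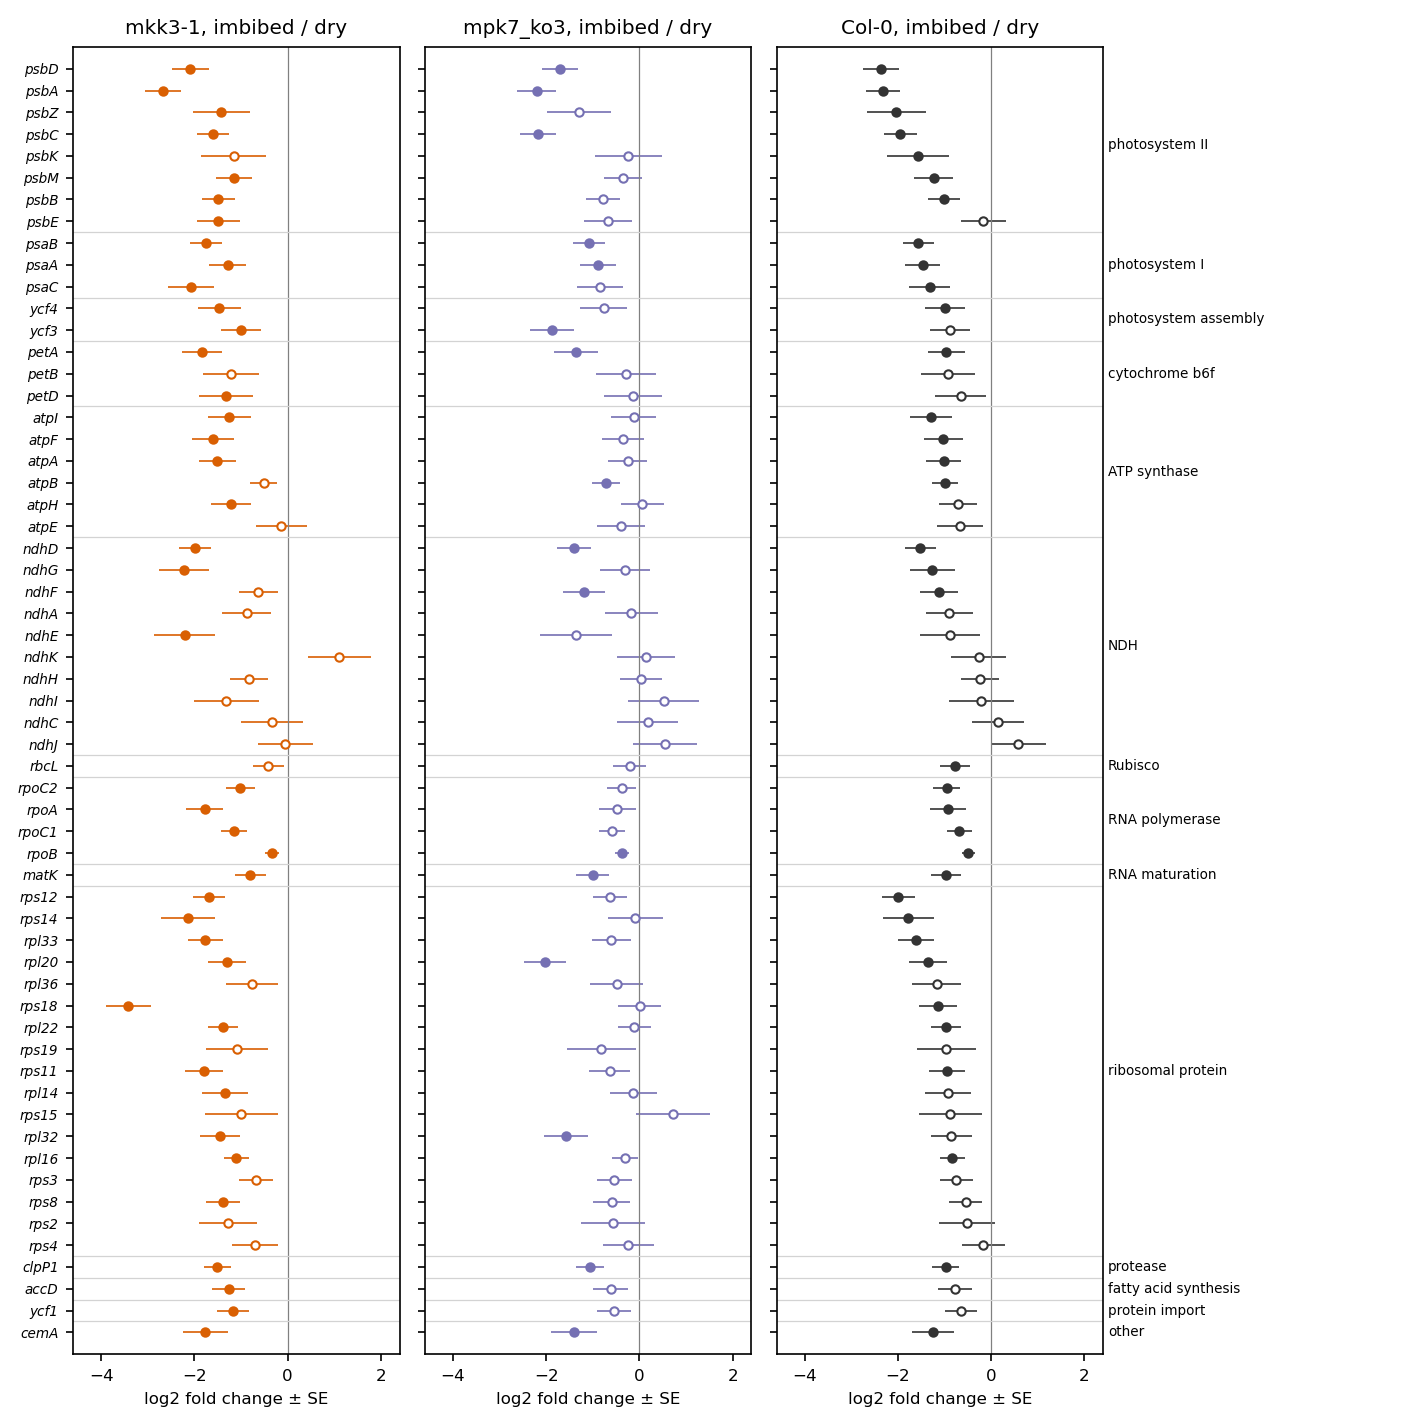
Log2 fold change of imbibed over dry seeds with its SE (edgeR, 3 libraries per group) for the 59 protein-coding members tested, in mkk3-1, mpk7_ko3 and Col-0, grouped by function. Filled points passed the test. psbA lies at -2.68, -2.21 and -2.32 in the 3 panels, while ndhC, ndhJ and ndhK lie between -0.34 and 1.11 with open points.

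Photosystem II genes showed the lowest class median in Col-0. Of 8 tested, 7 fell in mkk3-1, 3 in mpk7_ko3 and 7 in Col-0, with class medians of -1.48, -1.04 and -1.76. Without mpk7_ko3 dry replicate 3 the count in mpk7_ko3 was 5. Not all of these calls held in every omission of a single library. Those that did were psbA, psbB, psbC and psbD in mkk3-1, and psbA, psbC and psbD in mpk7_ko3. In Col-0 they were psbA, psbC, psbD and psbZ. psbA had 4.38, 9.33 and 3.12 CPM in imbibed mkk3-1 seeds, against 38.5, 36.9 and 32.2 CPM in dry mkk3-1 seeds. It had 3.14, 3.37 and 4.78 CPM in imbibed mpk7_ko3 seeds, against 19.8, 20.0 and 12.6 CPM in dry ones. In Col-0 it had 8.27, 4.16 and 12.4 CPM imbibed, against 28.2, 68.9 and 26.4 CPM dry. The imbibed and dry values of psbA were far apart in each genotype. Its log2 fold change was -2.68 ± 0.39 (SE) in mkk3-1 (edgeR adjusted p = 2.82e-06), -2.21 ± 0.41 in mpk7_ko3 (edgeR adjusted p = 7.3e-05) and -2.32 ± 0.37 in Col-0 (edgeR adjusted p = 1.01e-05).

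The share of psbA among plastid protein-coding counts was lower in imbibed seeds too. It averaged 7.43% ± 1.95 in imbibed mkk3-1 seeds and 18.6% ± 1.68 in dry ones (SD, n = 3 each). In mpk7_ko3 the single shares were 3.67, 6.44 and 6.96% imbibed, against 16.1, 12.9 and 13.0% dry. In Col-0 they were 10.02, 4.13 and 12.4% imbibed, against 16.6, 22.1 and 15.5% dry. No imbibed library reached the share of any dry library, the closest being 12.4% (95% exact binomial interval 11.1 to 13.8%, counting error only) and 12.9% (11.6 to 14.3%).

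psbD and psbC are cotranscribed and overlap in the 53 bases printed above. psbD had 0.979, 1.51 and 0.944 CPM in imbibed mkk3-1 seeds, against 4.48, 6.13 and 4.02 CPM in dry ones. In Col-0 it had 0.782, 1.04 and 1.85 CPM imbibed, against 4.73, 9.60 and 4.56 CPM dry. Its log2 fold change was -2.09 ± 0.39 in mkk3-1, -1.70 ± 0.39 in mpk7_ko3 and -2.37 ± 0.39 in Col-0. psbC had 1.63, 1.11 and 1.54 CPM in imbibed mpk7_ko3 seeds, against 7.17, 9.19 and 3.29 CPM in dry ones. It fell by 1.6 ± 0.35 on the log2 scale in mkk3-1, by 2.18 ± 0.39 in mpk7_ko3 and by 1.95 ± 0.36 in Col-0. psbZ, which lies downstream of them and encodes a small photosystem II subunit, fell by 2.04 ± 0.63 in Col-0 (edgeR adjusted p = 0.0065). All 3 of these neighbours were lower in the imbibed group in each genotype, and psbZ did not pass the test in mpk7_ko3 (log2 fold change -1.30 ± 0.69, edgeR adjusted p = 0.0976).

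Photosystem I was represented by psaA and psaB, which encode the reaction centre proteins, and psaC, which encodes an iron-sulfur subunit. All 3 fell in mkk3-1 and Col-0, and psaA and psaB fell in mpk7_ko3, where none passed without its dry replicate 2 and 1 passed without its imbibed replicate 2 or 3. psaB had 1.88, 4.20 and 2.42 CPM in imbibed mkk3-1 seeds, against 10.7, 9.11 and 8.74 CPM in dry ones. In mpk7_ko3 it had 5.29, 2.26 and 2.77 CPM imbibed, against 6.83, 10.4 and 4.73 CPM dry, and these groups overlapped. The call in mpk7_ko3 was lost without its dry replicate 2. Its log2 fold change was -1.75 ± 0.35 in mkk3-1, -1.08 ± 0.35 in mpk7_ko3 and -1.57 ± 0.33 in Col-0. Together with rps14, a small ribosomal subunit gene, psaA and psaB form a cotranscribed group whose median was -1.75 in mkk3-1, -0.89 in mpk7_ko3 and -1.57 in Col-0. rps14 itself fell by 2.13 ± 0.58 in mkk3-1 and by 1.78 ± 0.54 in Col-0, and in mpk7_ko3 had a log2 fold change of -0.09 that did not pass.

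The other thylakoid complexes moved less evenly. Of the 6 ATP synthase genes, 4 fell in mkk3-1, 1 in mpk7_ko3 and 4 in Col-0. The count in Col-0 was 0 without its dry replicate 2 and 1 without its imbibed replicate 1. In mkk3-1 it was 2 without its dry or its imbibed replicate 3, and in mpk7_ko3 it was 0 without its dry replicate 1 or 2 or its imbibed replicate 2 or 3. atpH, the proton channel subunit, fell by 1.22 ± 0.42 on the log2 scale in mkk3-1, a call lost in 3 omissions of its own libraries. Its log2 fold changes of 0.06 ± 0.46 in mpk7_ko3 and -0.71 ± 0.40 in Col-0 did not pass the test. Of the 3 cytochrome b6f genes, 2 fell in mkk3-1, 1 in mpk7_ko3 and 1 in Col-0, and the Col-0 count was 0 without its dry replicate 2 or its imbibed replicate 1 or 2. In mpk7_ko3 it was 0 without its dry or its imbibed replicate 2, and in mkk3-1 it was 1 in 8 of the 18 omissions (each mkk3-1 dry library, mkk3-1 imbibed replicate 1 or 3, Col-0 dry replicate 1 and Col-0 imbibed replicate 1 or 3). petB, the cytochrome b6 gene, passed in none, with log2 fold changes of -1.22 ± 0.60 in mkk3-1, -0.29 ± 0.63 in mpk7_ko3 and -0.93 ± 0.58 in Col-0. rbcL, the large subunit of Rubisco, fell by 0.78 ± 0.32 in Col-0 (edgeR adjusted p = 0.0351) and had log2 fold changes of -0.41 ± 0.33 in mkk3-1 and -0.21 ± 0.35 in mpk7_ko3 that did not pass. Without Col-0 dry replicate 2, or without Col-0 imbibed replicate 1 or 2, the change of rbcL no longer passed, with values between -0.98 and -0.48 over all omissions.

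NDH genes moved unevenly. Of 10 tested, 3 fell in mkk3-1, 2 in mpk7_ko3 and 3 in Col-0. In Col-0, ndhD alone fell without dry replicate 2. The count was 6 in mkk3-1 without its imbibed replicate 2, and 1 in mpk7_ko3 without its dry replicate 2 or its imbibed replicate 2 or 3. ndhD had 0.900, 1.87 and 0.575 CPM in imbibed mkk3-1 seeds, against 4.48, 3.48 and 5.36 CPM in dry ones. It fell by 1.99 ± 0.34 in mkk3-1, by 1.40 ± 0.36 in mpk7_ko3 and by 1.52 ± 0.33 in Col-0. ndhE and ndhG, of the same small single-copy cluster, fell by 2.21 ± 0.65 and 2.22 ± 0.54 in mkk3-1. In the separate cluster of ndhC, ndhK and ndhJ none fell in any genotype. Its median log2 fold change was -0.048 in mkk3-1, 0.17 in mpk7_ko3 and 0.15 in Col-0. These 3 genes were low, and ndhJ, for example, had 0.157 to 0.782 CPM in imbibed seeds and 0.20 to 0.632 CPM in dry seeds over all genotypes.

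The plastid also encodes the core of its own RNA polymerase. All 4 RNA polymerase core genes fell in mkk3-1 and Col-0, and rpoB alone fell in mpk7_ko3. In Col-0 it was rpoB alone without dry replicate 2, and the count was 2 without imbibed replicate 1. The mpk7_ko3 count was 0 without its dry replicate 2 or its imbibed replicate 2 or 3, and 2 without its imbibed replicate 1. rpoB, the beta subunit, had the smallest change of any member called. It had 6.85, 7.66 and 6.36 CPM in imbibed mkk3-1 seeds, against 8.62, 8.09 and 9.56 CPM in dry ones. In mpk7_ko3 it had 6.96, 6.78 and 6.60 CPM imbibed, against 7.17, 10.2 and 8.85 CPM dry. In Col-0 it had 5.88, 8.12 and 7.64 CPM imbibed, against 9.45, 9.60 and 11.3 CPM dry. The groups lay close together, with no overlap in any genotype. Its log2 fold change was -0.33 ± 0.14 in mkk3-1, -0.37 ± 0.15 in mpk7_ko3 and -0.49 ± 0.14 in Col-0. With library totals these values turned to 0.22, 0.18 and 0.11, so the direction for rpoB depended on the scaling. The mkk3-1 call was lost in 9 of the 18 omissions (its dry or imbibed replicate 1 or 3, Col-0 dry replicate 1, Col-0 imbibed replicate 3 and each mpk7_ko3 imbibed library), and the mpk7_ko3 call without its dry or imbibed replicate 2 or 3.

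matK, a maturase for plastid group II introns that lies within the trnK gene, fell by 0.80 ± 0.34 in mkk3-1, by 1.00 ± 0.36 in mpk7_ko3 and by 0.98 ± 0.32 in Col-0. The Col-0 value was -0.54 without Col-0 dry replicate 2 and did not pass (edgeR adjusted p = 0.151). The call was also lost in mkk3-1 without its dry replicate 1 or 3 or its imbibed replicate 3, and in mpk7_ko3 without its dry replicate 2 or its imbibed replicate 1. Of 17 ribosomal protein genes, 11 fell in mkk3-1, 2 in mpk7_ko3 and 8 in Col-0, with medians of -1.34, -0.53 and -0.94. The count in Col-0 was 4 without its dry replicate 2, namely rps12, rpl33, rps18 and rps14. The lowest value of any member was that of rps18 in mkk3-1. rps18 had 0.274, 0.326 and 0.164 CPM in imbibed mkk3-1 seeds, against 2.41, 3.79 and 2.16 CPM in dry ones. In mpk7_ko3 it had 1.35, 0.171 and 0.869 CPM imbibed, against 0.758, 0.999 and 0.658 CPM dry. In Col-0 it had 1.23, 0.960 and 1.15 CPM imbibed, against 2.19, 2.55 and 2.63 CPM dry. Its log2 fold change was -3.42 ± 0.49 in mkk3-1 (edgeR adjusted p = 2.29e-06), 0.0027 ± 0.46 in mpk7_ko3 and -1.14 ± 0.41 in Col-0. rpl20 fell by 2.02 ± 0.45 and rpl32 by 1.58 ± 0.47 in mpk7_ko3. The row for the first exon of rps12, a gene whose transcript is joined from separate precursors, fell by 1.99 ± 0.36 in Col-0.

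Among the remaining genes, clpP1 encodes the proteolytic subunit of the plastid Clp protease. It had 3.44, 3.06 and 2.13 CPM in imbibed mkk3-1 seeds, against 8.33, 7.15 and 9.15 CPM in dry ones. Its log2 fold change was -1.51 ± 0.29 in mkk3-1, -1.06 ± 0.30 in mpk7_ko3 and -0.98 ± 0.28 in Col-0, the last being -0.45 and not past the test without Col-0 dry replicate 2. accD, a subunit of the acetyl-CoA carboxylase of fatty acid synthesis, fell by 1.27 ± 0.36 in mkk3-1. Its log2 fold changes of -0.62 ± 0.38 in mpk7_ko3 and -0.78 ± 0.36 in Col-0 did not pass. ycf1, a component of the protein import machinery of the inner envelope, fell by 1.18 ± 0.35 in mkk3-1, with -0.55 ± 0.37 in mpk7_ko3 and -0.65 ± 0.35 in Col-0 not passing. ycf3, a photosystem I assembly factor, fell in both mutants, with log2 fold changes of -1.0 ± 0.43 in mkk3-1 and -1.87 ± 0.47 in mpk7_ko3. In Col-0 it was not called but was also lower, without overlap. It had 0.699, 0.800 and 0.780 CPM in imbibed Col-0 seeds, against 0.891, 2.13 and 1.16 CPM in dry ones. The mkk3-1 call was lost without its dry replicate 1 or 2, its imbibed replicate 1 or 3, or Col-0 imbibed replicate 2 or 3. cemA, an envelope membrane protein, fell by 1.77 ± 0.48 in mkk3-1, by 1.40 ± 0.48 in mpk7_ko3 and by 1.25 ± 0.44 in Col-0. The Col-0 value was -0.90 and did not pass without Col-0 dry replicate 2 (edgeR adjusted p = 0.112), nor did it without Col-0 imbibed replicate 1, and the mpk7_ko3 call was lost without its imbibed replicate 2.

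**Figure D3:**
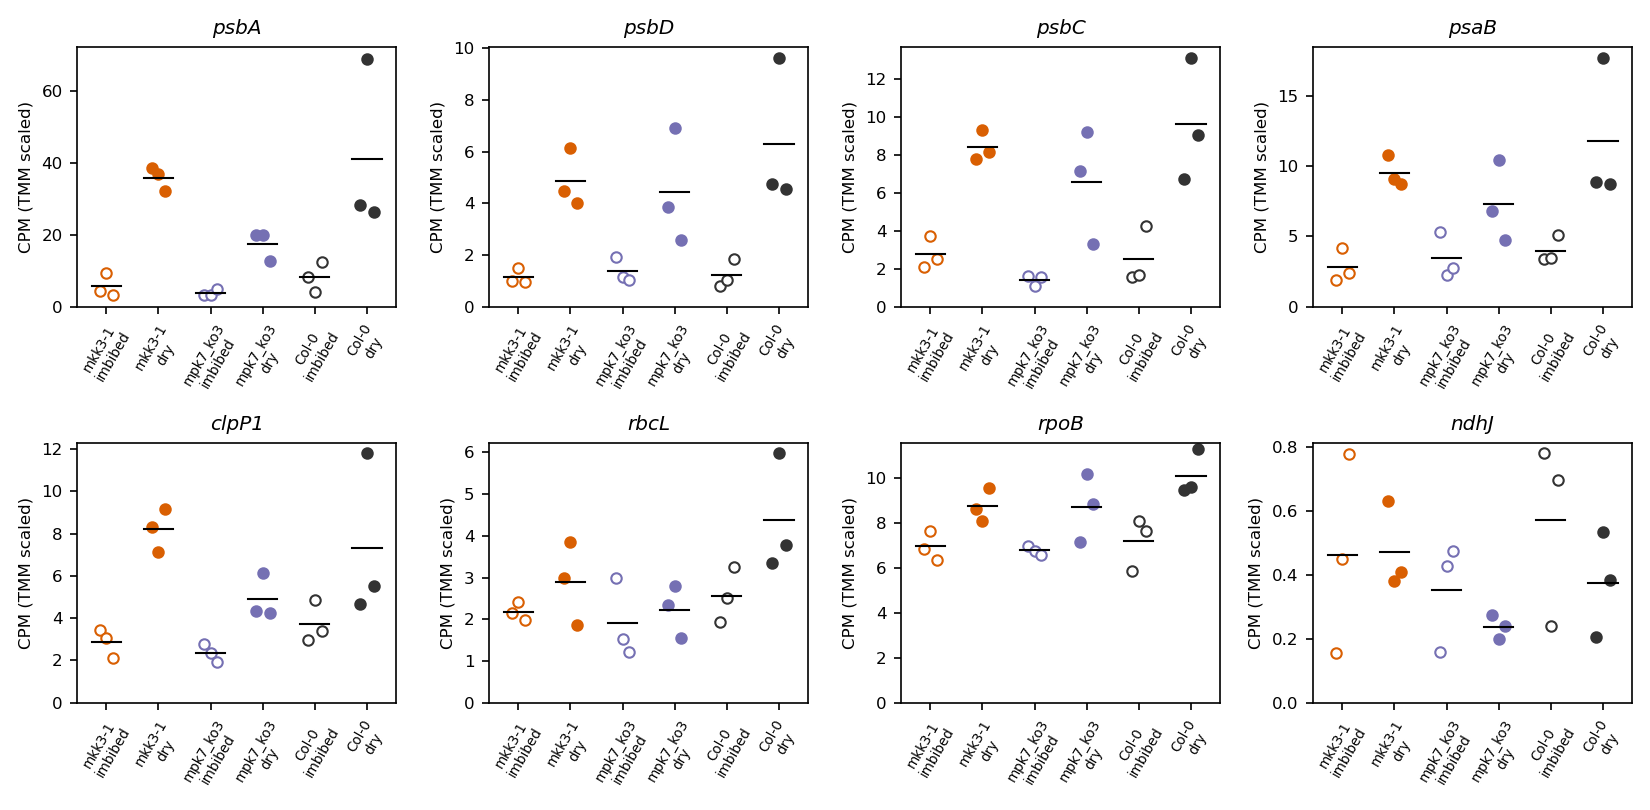
CPM scaled with TMM factors in every library for 8 members, on linear axes from 0. Points are libraries, open for imbibed and filled for dry, and bars are means of 3. psbA, psbD and psbC separate imbibed from dry seeds in every genotype, rpoB lies between 5.88 and 11.3 CPM throughout, and ndhJ shows no separation in any genotype.

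To ask which genes changed relative to the rest of plastid RNA, the libraries were also scaled to their summed plastid protein-coding counts. This scaling was added after the data were seen. psbA was then the only gene below the others in all 3 genotypes, at -1.32 ± 0.34 in mkk3-1, -1.31 ± 0.34 in mpk7_ko3 and -1.03 ± 0.33 in Col-0 (edgeR adjusted p = 0.000157, 0.000376 and 0.00334). rps18 lay below in mkk3-1 (-2.02 ± 0.61), psbC in mpk7_ko3 (-1.28 ± 0.41) and psbD in Col-0 (-1.15 ± 0.44). Above the others lay rbcL, ndhK, rpoB and ndhJ in mkk3-1, none in mpk7_ko3 and ndhJ in Col-0. The adjustment was weak under this scaling. For example, ndhJ passed in mkk3-1 at only 1.52 ± 0.71 (edgeR adjusted p = 0.0409). All calls under this scaling are therefore close to unadjusted ones and are descriptions only. psbA is itself part of the sum, so its own decrease raises the relative values of the other genes.

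Ribosomal RNA, of which rrn16 and rrn23 encode the long molecules of the small and the large subunit, is given apart, since both copies of each gene are identical over their whole length and its amount depends on how the libraries were made. Counts were few, with 374 and 380 over all 18 libraries for the copies of rrn23 and 122 and 119 for those of rrn16. Reads from identical copies cannot be traced to 1 of them, so a difference between the 2 rows of a gene has no meaning. Summed over the rows, rRNA averaged 1.47 CPM of the library total imbibed and 4.22 dry in mkk3-1. The averages were 1.16 and 2.27 in mpk7_ko3, and 2.46 and 5.21 in Col-0, and in these 2 genotypes the groups overlapped. In mpk7_ko3 the single sums were 1.24, 0.906 and 1.33 imbibed, against 1.95, 3.84 and 1.03 dry. In Col-0 they were 1.81, 1.17 and 4.40 imbibed, against 3.32, 7.92 and 4.39 dry. These sums were not tested. At least 1 of the 2 rows of rrn23 was called lower in each genotype. The copy ATCG00950 had 0.509, 0.611 and 0.328 CPM in imbibed mkk3-1 seeds, against 1.78, 1.71 and 1.63 CPM in dry ones. In mpk7_ko3 it had 0.318, 0.213 and 0.395 CPM imbibed, against 1.45, 2.0 and 0.598 CPM dry. In Col-0 it had 0.576, 0.440 and 1.07 CPM imbibed, against 1.58, 3.73 and 1.99 CPM dry. Its groups did not overlap, and it fell by 1.81 ± 0.46, 2.09 ± 0.50 and 1.81 ± 0.43 on the log2 scale in mkk3-1, mpk7_ko3 and Col-0. Its other copy, ATCG01180, fell by 2.55 ± 0.61 in mkk3-1 and by 1.52 ± 0.57 in Col-0, and its value of -0.88 ± 0.65 in mpk7_ko3 did not pass. Its Col-0 call was lost with library totals, without Col-0 dry replicate 2 (-1.19) and without Col-0 imbibed replicate 1 or 2. For rrn16 the copy ATCG00920 fell by 2.1 ± 0.68 in mkk3-1 and by 2.0 ± 0.62 in Col-0. Its Col-0 value was -1.43 without Col-0 dry replicate 2 and did not pass (edgeR adjusted p = 0.0762). ATCG00950 was then the single rRNA row of 4 called in Col-0, and 2 were called without Col-0 imbibed replicate 1 or 2. In mpk7_ko3, where ATCG00950 alone was called, 2 were called without mpk7_ko3 dry replicate 3, mpk7_ko3 imbibed replicate 1, mkk3-1 imbibed replicate 3 or Col-0 dry replicate 1 or 2. The copy ATCG01210 passed in Col-0 (-1.46 ± 0.65, edgeR adjusted p = 0.0486), a call lost in 11 of the 18 omissions of a single library, with DESeq2, with library totals, with no filter on low counts and with the replicate number as a block. Of the 4 tRNA genes tested, 1 fell in mkk3-1, 1 in mpk7_ko3 and 2 in Col-0, with 0 in Col-0 without its dry replicate 2 and 1 without its dry replicate 1 or its imbibed replicate 1 or 3. The count was 2 in mkk3-1 without its dry or imbibed replicate 1, and 0 in mpk7_ko3 without its dry replicate 1 or its imbibed replicate 1 or 2.

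The second question was whether the mutants differed from Col-0 in the same state. In dry seeds, no protein-coding member passed the test between mkk3-1 and Col-0 (2 had an unadjusted p below 0.05, and DESeq2 also called 0), where 2.08% of all genes passed in either direction. The median log2 difference was -0.18, and without Col-0 dry replicate 2 it was 0.21, so its direction rested on that library. The 2 genes with an unadjusted p below 0.05, named after their values were seen, were ndhK and atpB. psbA had a log2 difference of -0.20 ± 0.34 and rbcL of -0.60 ± 0.33. In imbibed seeds 1 member, rps18, was lower in mkk3-1 than in Col-0, where 4.32% of all genes were called lower. Its log2 difference was -2.1 ± 0.50 (edgeR adjusted p = 0.0119), with the library values given above and no overlap. Without mkk3-1 imbibed replicate 3 it no longer passed. The median over the members was -0.46, with 52 of 59 values negative, and -0.20 over 61 tested without mkk3-1 imbibed replicate 3, against -0.016 over all genes tested. The share of all genes with a negative value is not given here. The plastid share of a library also enters every member, so the count of negative values is a description only.

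In dry seeds of mpk7_ko3, 1 member, atpA, passed against Col-0, where 2.11% of all genes were called lower. atpA encodes the alpha subunit of the ATP synthase and had 2.07, 3.0 and 0.778 CPM in dry mpk7_ko3 seeds, against 4.52, 8.06 and 4.04 CPM in dry Col-0 seeds. Its log2 difference was -1.53 ± 0.40 (edgeR adjusted p = 0.0405), and the call was lost in 6 of the 18 omissions of a single library: mpk7_ko3 dry replicate 1 or 3, mkk3-1 imbibed replicate 1, Col-0 imbibed replicate 1 or 3, and Col-0 dry replicate 2 (-1.99 to -1.13 over all omissions). All 59 members had a negative value, with a median of -0.81 and an unadjusted edgeR p below 0.05 for 23. The shares of all genes with a negative value or with such a p are not given here, so these counts are descriptions only. Without Col-0 dry replicate 2 the median of these 59 was -0.46, 54 were negative and none passed. psbA had a difference of -1.25 ± 0.36 without overlap, which did not pass (edgeR adjusted p = 0.0679). The values of the members are not independent of each other, since the plastid share of a library enters all of them.

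**Figure D4:**
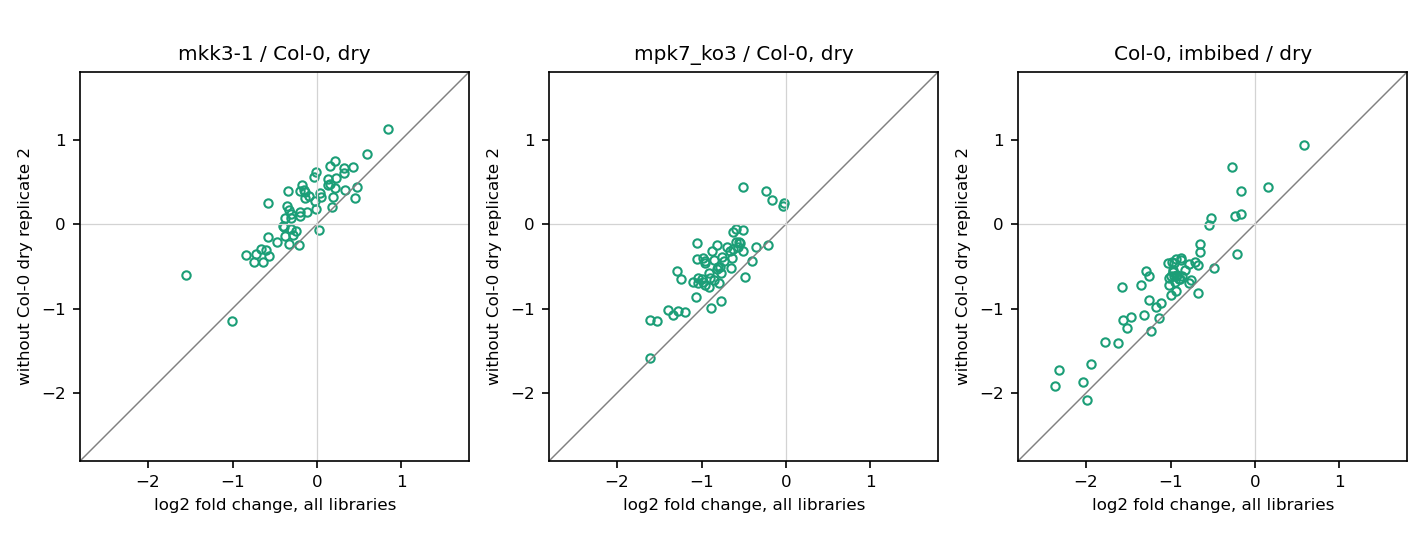
Log2 fold changes of the 59 protein-coding members tested, fitted with all 18 libraries (horizontal) and without Col-0 dry replicate 2 (vertical), for mkk3-1 over Col-0 in dry seeds, mpk7_ko3 over Col-0 in dry seeds and imbibed over dry Col-0 seeds. Most points lie above the diagonal, and the medians move to 0.21, -0.46 and -0.62, against -0.18, -0.81 and -0.96 with all libraries.

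In imbibed seeds of mpk7_ko3, 1 member, petA, passed against Col-0, where 4.72% of all genes were called lower. petA encodes cytochrome f and had 0.637, 0.213 and 0.395 CPM in imbibed mpk7_ko3 seeds, against 0.946, 1.16 and 1.31 CPM in imbibed Col-0 seeds. Its log2 difference was -1.44 ± 0.44 (edgeR adjusted p = 0.0454). The call was lost in 10 of the 18 omissions, among them mpk7_ko3 imbibed replicate 2 or 3 and each Col-0 imbibed library, with library totals, with no filter on low counts and with the replicate number as a block (-1.87 to -1.14 over the omissions). The members' median was -0.47, against -0.0068 over all genes tested.

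The third question was whether the response to imbibition differed between a mutant and Col-0. No protein-coding member passed the test of this difference for mkk3-1 (1 had an unadjusted p below 0.05, DESeq2 called 0) or for mpk7_ko3 (2 had an unadjusted p below 0.05, DESeq2 called 0). Among all genes, 0.124% and 0.00563% passed in these comparisons. The median difference was -0.41 for mkk3-1 and 0.30 for mpk7_ko3. The gene behind the single unadjusted value in mkk3-1, named after its value was seen, was rps18, with -2.28 ± 0.64 (edgeR adjusted p = 0.191). Those in mpk7_ko3, named likewise, were rps14 and rps12, with differences of 1.69 and 1.37. For psbA the difference was -0.35 ± 0.53 in mkk3-1 and 0.12 ± 0.56 in mpk7_ko3, intervals wide enough to hold a change of either sign.

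Counts also varied with whether a sequence is unique in the plastid genome. For each exon base, the 150-base window around it was searched for a second exact copy. All 15 protein-coding rows with over 90% of such windows repeated in the plastid genome had 0 to 18 counts over all 18 libraries, with a median of 1. The other 73 rows had 19 to 5890 counts, with a median of 381. The full copy of ycf1, with 17.8% of its windows repeated, had 1639 counts, and its short copy, with 92.6% repeated, had 18. The row for the first exon of rps12 had 260 counts, while the rows for its later exons in the inverted repeat had 0 and 1. How reads with several matches were counted is not given in the sources used here, and its part in these values was not tested. The 4 rRNA rows are fully repeated and yet held 119 to 380 counts each. Low counts of genes in the inverted repeat, ycf2 among them, need not mean low RNA.

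**Figure D5:**
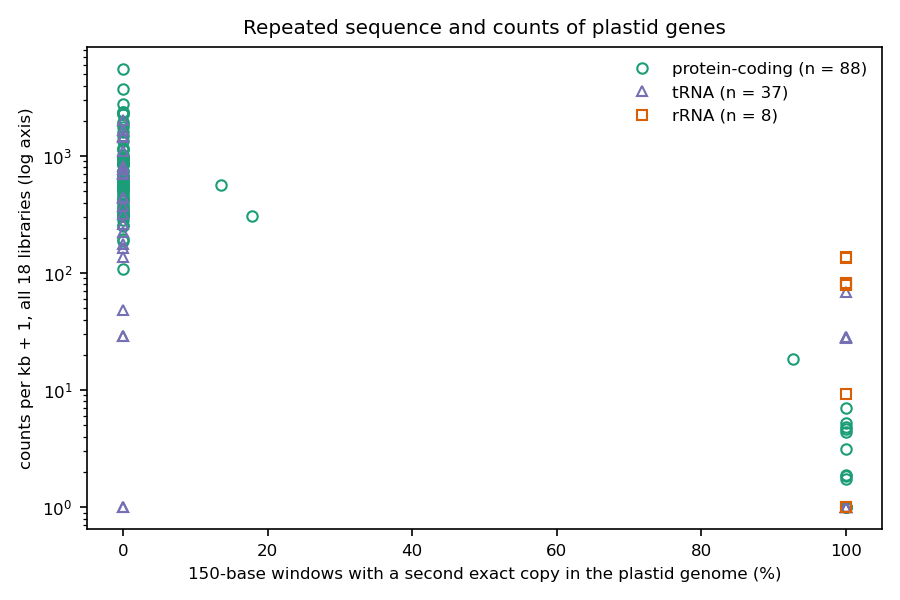
Counts per kilobase plus 1 over all 18 libraries (log axis) against the share of 150-base windows with a second exact copy in the plastid genome, for all 133 plastid rows. psbA is the highest protein-coding row, at 5546 counts per kilobase with no repeated window, and the protein-coding rows with over 90% repeated windows hold at most 18 counts each.

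Averaged over all libraries, psbA had the highest level per kilobase, with 17.6 CPM per kb. psbM, a small photosystem II subunit gene of 105 bases, followed with 10.9, clpP1 with 8.29 and rpl32 with 7.13 CPM per kb. The rows of rrn23 had 0.416 and 0.414 CPM per kb and those of rrn16 0.255 and 0.240. These rows are fully repeated in the plastid genome, so their levels cannot be ranked against those of unique genes. psbA held 5.28 ± 3.09 CPM per kb in imbibed mkk3-1 seeds and 33.8 ± 3.06 in dry ones (SD, n = 3 each). psbA was first in each dry group and in imbibed Col-0 seeds, but not in the imbibed mutants. In imbibed mkk3-1 seeds psbM (8.52 ± 3.01) and rpl16 (5.35 ± 1.15) lay above psbA, and clpP1 followed with 4.87 ± 1.14 CPM per kb. In imbibed mpk7_ko3 seeds psbA had 3.54 ± 0.836 CPM per kb, below psbM (8.10 ± 0.910), trnV, rpl36, rpl16, rps12 and clpP1. psbM, trnV (75 bases), rpl36 (114 bases) and the first exon of rps12 (114 bases) are shorter than a read of 150 bases, which makes their level per kilobase uncertain.

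Nuclear genes that serve plastid gene expression are given beside the 37.5 to 38.8% of all genes called higher on imbibition. Of the 8 plastid RNA polymerase and sigma factor genes tested, 5 rose and 1 fell in mkk3-1, 4 rose and 2 fell in mpk7_ko3, and 5 rose and 2 fell in Col-0 (1 without its dry replicate 3 or its imbibed replicate 2). RPOTP (AT2G24120), the phage-type plastid polymerase, averaged 136 ± 8.74 CPM in imbibed mkk3-1 seeds and 55.5 ± 3.18 CPM in dry ones, and 142 ± 7.52 CPM in imbibed Col-0 seeds and 60.7 ± 3.74 CPM in dry ones (SD, n = 3 each). In Col-0 RPOTP rose by 1.23 ± 0.08 on the log2 scale, SIG1 by 2.37 ± 0.45 and SIG6 by 1.15 ± 0.14, while SIG5 fell by 1.35 ± 0.22. Of 14 genes for proteins bound to the bacterial-type polymerase, 11 rose and 0 fell in mkk3-1, 10 rose and 1 fell in mpk7_ko3, and 12 rose and 1 fell in Col-0. The fall in mpk7_ko3 was lost without its dry replicate 2 or its imbibed replicate 2 or 3. Among those that rose was PTAC7, at 1.87 ± 0.22 in Col-0. Of 6 genes for plastid RNA processing and decay, 3 rose and 1 fell in each genotype.

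Of the 21 nuclear genes for plastid ribosomal proteins that were tested, 15 rose and 1 fell in mkk3-1, 14 rose and 2 fell in mpk7_ko3, and 17 rose and 0 fell in Col-0. None fell in mkk3-1 without its dry replicate 2, and in mpk7_ko3 none fell without its dry replicate 1 and 1 without its imbibed replicate 1. RPL6 (AT1G05190) had the largest rise of the list in Col-0, by 1.78 ± 0.14. Between genotypes in imbibed seeds, 11 of the 21 were lower in mkk3-1 than in Col-0 and 9 were lower in mpk7_ko3 than in Col-0, with medians of -0.33 and -0.27 and none higher. Among all genes tested, 4.32% and 4.72% were called lower in these comparisons. The mkk3-1 count was 4 without Col-0 imbibed replicate 1, 5 without Col-0 imbibed replicate 3 or mkk3-1 imbibed replicate 1, and 6 without mkk3-1 imbibed replicate 3. How the mpk7_ko3 count moved in such omissions is not given here. RPL6 had log2 differences of -0.60 ± 0.13 in mkk3-1 and -0.69 ± 0.13 in mpk7_ko3. Both comparisons share the Col-0 libraries. The tests of the difference in response called 0 of the 21 for either mutant.

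Mitochondrially encoded genes were mostly lower in imbibed seeds too. Of 49 tested, 33 fell and 1 rose in mkk3-1, 30 fell and 1 rose in mpk7_ko3, and 37 fell and 0 rose in Col-0, with medians of -1.41, -1.22 and -1.58. Seed storage and maturation markers also fell, 4 of 7 in mkk3-1, 4 of 7 in mpk7_ko3 and 7 of 7 in Col-0. Of the 5 green-tissue markers tested, 4 rose in each genotype. The part of these in the plastid values was not tested.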

How the data were processed

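RNA of 18 libraries from Arabidopsis seeds (6 groups, 3 libraries each) was measured by paired-end sequencing. Per the submitters' processing notes, the tools were featureCounts 2.0.1, HISAT2 2.1.0, fastp 0.20.0 together with DESeq2 1.34.0, with the TAIR10 build. The deposited file holds raw counts per gene, per the file headers and the labels. RNA selection, strand and the handling of reads with several matches are not given in the sources used here.

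Counts were tested with edgeR 4.0.16 (R 4.3.3) by its quasi-likelihood test, after a filter on low counts (minimum count 10) that left 17758 of 32833 genes. Libraries were scaled by TMM, 6 group means were fitted over all 18 libraries (12 residual degrees of freedom), and p-values were adjusted by Benjamini-Hochberg over all genes tested, with a threshold of 0.05. This covered 67 of the 71 members. The SE was derived from the F statistic. The steps were tested on simulated data, with changes placed only in genes above a set level and only in imbibed Col-0 seeds. Most members lay below that level, so recovery of changes at their levels was not tested. Library totals of 18249333 to 21036275 counts left 1212 to 5257 counts for the plastid protein-coding genes, so counting error is large for single genes. Alternatives were DESeq2 1.42.0, its size factors, library totals, nuclear genes alone, no filter, a replicate block and single-library omissions. 2 more were chosen after seeing the data: leaving out both mpk7_ko3 libraries numbered 3, and scaling to plastid protein-coding counts.

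Genes named are psbA, rbcL, accD, clpP1, rpoB, ycf1, ycf2, rrn16 and rrn23, the member of highest counts per kilobase in each functional class, up to 6 largest rises and falls per comparison, and transcription units with at least 3 tested members. The 12 genes that fell in all genotypes, and the genes named for an unadjusted or relative value, were chosen after their values were seen. Of nuclear lists, up to 4 of the largest changes are named. Members and lists were chosen with earlier results of these data known. Sequences came from RefSeq TAIR10.1, in which 125 of 133 plastid rows had the same start and end.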

Additional observations from a re-analysis of the deposited data

How the results depend on the processing

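Counts of protein-coding members past the threshold moved most with the scaling. With library totals they were 24 in mkk3-1, 6 in mpk7_ko3 and 9 in Col-0 for imbibed against dry seeds, and 0 for mpk7_ko3 against Col-0 imbibed. With scaling to plastid protein-coding counts they were 6, 2 and 3, and 0 in each comparison of a mutant with Col-0. The adjustment was weak under that scaling, as given above. Leaving out 1 library at a time gave 33 to 48 for imbibed against dry in mkk3-1, 10 to 19 in mpk7_ko3 (10 without its dry replicate 2, with the filter redone) and 14 to 38 in Col-0 (14 without its dry replicate 2, with the filter redone). It gave 0 to 0 for mkk3-1 against Col-0 dry, 0 to 1 imbibed, and 0 to 2 for mpk7_ko3 against Col-0 in either state. Without both mpk7_ko3 libraries numbered 3, mpk7_ko3 against Col-0 gave 0 in either state. With no filter on low counts, mpk7_ko3 against Col-0 dry gave 4. With the replicate number as a block, the counts were 40, 16 and 35 for imbibition, and 0 for mpk7_ko3 against Col-0 imbibed; the labels do not say that a number marks a batch, and same-number correlations ran from -0.154 to 0.278. The tests of a difference in response gave 0 throughout. The cause of these differences was not tested.

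Of 53 single-gene results under 24 planned settings, 1173 of 1272 values kept direction and side of the threshold, 96 no longer passed and 3 turned. Those 3 were rpoB with library totals, at 0.22 in mkk3-1, 0.18 in mpk7_ko3 and 0.11 in Col-0. Scaling to plastid counts turned 12: rpoB to 1.16, matK to 0.66, ycf3 to 0.37, ycf1 to 0.24, atpH to 0.14, accD to 0.13 and rpl32 to 0.011 in mkk3-1; rpoB to 0.51 in mpk7_ko3; and rpoB to 0.59, rbcL to 0.40, clpP1 to 0.27 and matK to 0.26 in Col-0. Calls kept in every omission numbered 31 of 41 in mkk3-1, 8 of 16 in mpk7_ko3 and 11 of 35 in Col-0. psbA, psbC, psbD and ndhD were among the calls kept in mpk7_ko3 and Col-0. Single calls lost without 1 library included matK in each genotype, rpoB and ycf3 in mkk3-1, and psaB and rpoB in mpk7_ko3. At 1212 to 5257 plastid protein-coding counts per library, smaller changes were not detectable for most members.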

Other observations

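Across the 59 protein-coding members tested, the log2 fold change of imbibed over dry seeds was lower for genes of higher level per kilobase, with Spearman correlations of -0.363 in mkk3-1, -0.224 in mpk7_ko3 and -0.486 in Col-0. The points share their libraries, and level and fold change come from the same counts, so these values are descriptions only. Across 62 genes, the level per kilobase had Spearman correlations of -0.425 with length, -0.309 with the longest run of A and -0.242 with the AT share of the gene.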
